A study of Mus musculus with 2 samples.

Results

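The killer lectin-like and natural killer receptor genes described here were Klrg1, Klrd1, Klrk1, Klrc1, Klrb1c, Klra1 and Ncr1, 7 of 21826 protein-coding genes. All peaks with a summit in a gene body or within 20 kb of it were taken from both deposited lists, which gave 26 of 78016 peaks in replicate 1 and 24 of 74653 in replicate 2. Peaks of the 2 libraries that overlapped by at least 1 bp were merged into 27 regions, of 84666 in the genome. A region was called promoter where its summit lay no more than 1000 bp from the start of a protein-coding transcript, and distal otherwise. It was called shared where both libraries had a peak in it. Distances run from a region's summit to the gene's 5' end, its most upstream annotated base, unless another start is named.

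The libraries were ATAC-seq, an assay in which a transposase cuts accessible DNA, of primary T cells from C57BL/6NJ mice. They form 1 group of 2, numbered 1 and 2 as biological replicates but given the same donor record, so the spread between them may be technical. The labels state no treatment, no age and no sex, and link to a protocol for differentiating CD4+ T cells. Every peak name contains Th0, 72hrs and ASTARR.insert, which no label explains. The cells are therefore called T cells only, and whether the libraries were made as ordinary ATAC-seq, as their assay label has it, or as fragments for another assay is not given in the sources used here. In the text below, open means only that a peak was listed.

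These receptors are proteins of the cell surface through which natural killer (NK) cells and some effector T cells weigh activating against inhibitory contacts with a target cell. Most are C-type lectin-like molecules encoded side by side on mouse chromosome 6 in the natural killer gene complex. Inhibitory members such as CD94/NKG2A and Ly49A read MHC class I molecules, while the activating receptor NKG2D reads ligands that stressed cells put on their surface. NKp46, the product of Ncr1, is an immunoglobulin-like receptor used as a marker of NK cells and some innate lymphoid cells.

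Peak values are the authors' own. The signal (column 7) is a ratio read here as fold enrichment over local background, and −log10 q (column 9) is the strength of the caller's evidence for that peak. Neither is scaled between libraries, and the depth of the libraries is unknown, so a missing peak may be a closed site or one too weak to be called. Of the promoters of 8 T-cell marker genes, 7 were open in both libraries, Cd8a being the exception. The gene of the other CD8 chain, Cd8b1, had a promoter signal of 9.32 in replicate 1 and 7.53 in replicate 2. That of Cd4 was 2.84 and 3.24, both genes being named after their values were seen. None of 3 B-cell, 3 myeloid and 2 hepatocyte marker promoters was open in both libraries, but 2, 3 and 1 of these genes had a shared distal region. Of 6 further genes used as markers of NK cells, Eomes, Gzmb, Prf1 and Nkg7 had promoter regions in both libraries, with signals of 3.33 to 14.3, and Gzma and Tyrobp had none. In such bulk samples a region open in few cells and one weakly open in many cannot be told apart, and the part that cells of another type play in the values below was not tested.

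The promoters of 4 of the 7 receptor genes had no peak in either library, and shared distal regions were found at about the share of all genes. Klrk1 and Klrb1c had a promoter region in both libraries, 2 of 7 (28.6%), where 62.8% of all protein-coding genes had one. Klrd1 had one in replicate 1 alone, and Klrg1, Klrc1, Klra1 and Ncr1 had none in either. Klrg1, Klrd1, Klrk1, Klrc1 and Klrb1c had at least 1 shared distal region, 5 of 7 (71.4%), where 71.7% of all genes had one. Ncr1 had a distal region in replicate 2 alone. Of the 27 regions, 21 were shared (77.8%, against 79.0% in the genome): 18 distal ones and 3 at promoters, the third being that of the neighbouring gene Klre1.

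The bases under the strongest shared distal region of each of the 5 loci, and those at the starts, are given first because the values refer to these sites. The distal stretches reach 50 bases to each side of the summit, on the plus strand of the mm10 build. Capitals mark matches, on either strand, to the short consensus letters of 8 motifs. AP-1, bound by Fos, Jun and BATF proteins, was searched as TGANTCA. The letters for RUNX factors, which act in most blood lineages, were TGTGGT. For ETS factors, a large family that includes Ets1, they were GGAAGT. The T-box family, with T-bet and Eomes, was searched as AGGTGT. For STAT proteins, which act downstream of cytokine receptors, TTCNNNGAA was used. TCF factors, partners of beta-catenin, were searched as CTTTGAA. For GATA factors such as Gata3 the letters AGATAA were used. CTCF was searched by its longer consensus, and no matches of different motifs overlapped in the stretches shown.
Klrg1, 24.7 kb downstream of the 5' end, chr6:122258134-122258234: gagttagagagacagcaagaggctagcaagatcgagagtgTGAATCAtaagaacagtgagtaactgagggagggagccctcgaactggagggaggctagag
Klrd1, 8.52 kb upstream, chr6:129583212-129583312: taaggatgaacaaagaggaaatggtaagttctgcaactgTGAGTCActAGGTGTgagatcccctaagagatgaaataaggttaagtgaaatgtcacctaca
Klrk1, 15.3 kb downstream, chr6:129608532-129608632: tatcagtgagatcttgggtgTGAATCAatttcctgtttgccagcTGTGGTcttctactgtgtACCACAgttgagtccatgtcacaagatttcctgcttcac
Klrc1, 1.67 kb upstream, chr6:129680595-129680695: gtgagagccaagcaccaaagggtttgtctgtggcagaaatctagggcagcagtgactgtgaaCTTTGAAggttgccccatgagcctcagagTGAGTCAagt
Klrb1c, 5.65 kb downstream, chr6:128783514-128783614: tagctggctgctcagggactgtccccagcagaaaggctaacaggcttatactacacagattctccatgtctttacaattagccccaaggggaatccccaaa

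An AP-1 match lay in the stretch at Klrg1, Klrd1, Klrk1 and Klrc1 and not in that at Klrb1c. In the Klrd1 stretch the AP-1 match at bases 40 to 46 was followed by a T-box match at bases 49 to 54, and in the Klrk1 stretch it was joined by 2 RUNX matches. Over all 21 shared regions of the loci, 7 held an AP-1 match within 50 bp of the summit (33.3%), where 18.3% of the 66847 shared regions of the genome did. Among distal regions alone it was 6 of 18 (33.3%), against 22.2% in the genome. RUNX letters were in 3 of 21 (14.3%, against 12.3%), T-box in 2 (9.52% against 5.28%), TCF in 2 (9.52% against 2.67%), and STAT and CTCF in 1 each (4.76%, against 4.31% and 5.82%). ETS and GATA letters were in 0 of 21, where 11.1% and 3.48% of all shared regions held them. The GC content of these 21 windows, which include the promoter regions, had a median of 48.5%. The median was 49.5% over all shared distal regions of the genome and 65.3% over all shared promoter regions.

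RefSeq's promoter table (GRCm38.p6, the assembly of mm10) held 5 of the 7 genes, all but Klrg1 and Klrd1. The windows run from 250 bases before the start to 50 after it. Each of the 5 held RUNX letters, which were in 16.8% of the 32851 windows of the table. Klrb1c also held ETS letters (23.8% of all windows) and Klrk1 an AP-1 match (7.81%), and the other 5 motifs were in none of the 5. The accessible promoters of Klrk1 and Klrb1c are shown up to base 25 after RefSeq's start, on the minus strand.
Klrk1 promoter, chr6:129623840-129624114: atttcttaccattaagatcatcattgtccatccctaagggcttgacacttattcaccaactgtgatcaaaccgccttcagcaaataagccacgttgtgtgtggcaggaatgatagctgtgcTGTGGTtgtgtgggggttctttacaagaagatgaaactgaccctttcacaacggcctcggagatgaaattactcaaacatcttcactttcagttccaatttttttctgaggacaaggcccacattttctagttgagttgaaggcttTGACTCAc
Klrb1c promoter, chr6:128788617-128788891: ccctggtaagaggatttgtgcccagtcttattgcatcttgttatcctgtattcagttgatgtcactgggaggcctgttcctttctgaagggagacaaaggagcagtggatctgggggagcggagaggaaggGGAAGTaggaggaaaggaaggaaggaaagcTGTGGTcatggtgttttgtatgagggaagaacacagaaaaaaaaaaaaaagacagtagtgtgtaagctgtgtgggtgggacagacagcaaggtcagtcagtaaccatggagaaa

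The RUNX letters were present as well at the starts of Klrc1, Klra1 and Ncr1, which had no promoter region, and of Klrd1, which had one in replicate 1 alone. The first 3 stretches hold 20 bases on each side of a match, read along each gene's own strand. Klrc1 has the letters in reverse complement, and Ncr1 has a second match that is not shown. The last stretch, from the genome sequence, is on the plus strand and ends at base 25 of the Klrd1 transcript.
Klrc1, chr6:129679035-129679080: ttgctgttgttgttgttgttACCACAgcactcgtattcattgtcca
Klra1, chr6:130387050-130387095: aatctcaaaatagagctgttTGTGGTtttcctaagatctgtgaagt
Ncr1, chr7:4337519-4337564: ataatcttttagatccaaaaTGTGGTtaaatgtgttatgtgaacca
Klrd1, chr6:129591718-129591806: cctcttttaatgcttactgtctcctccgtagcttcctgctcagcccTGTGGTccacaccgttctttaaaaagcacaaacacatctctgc

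Thus the matched letters occurred both at starts with a promoter region and at starts without one.

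**Figure D1:**
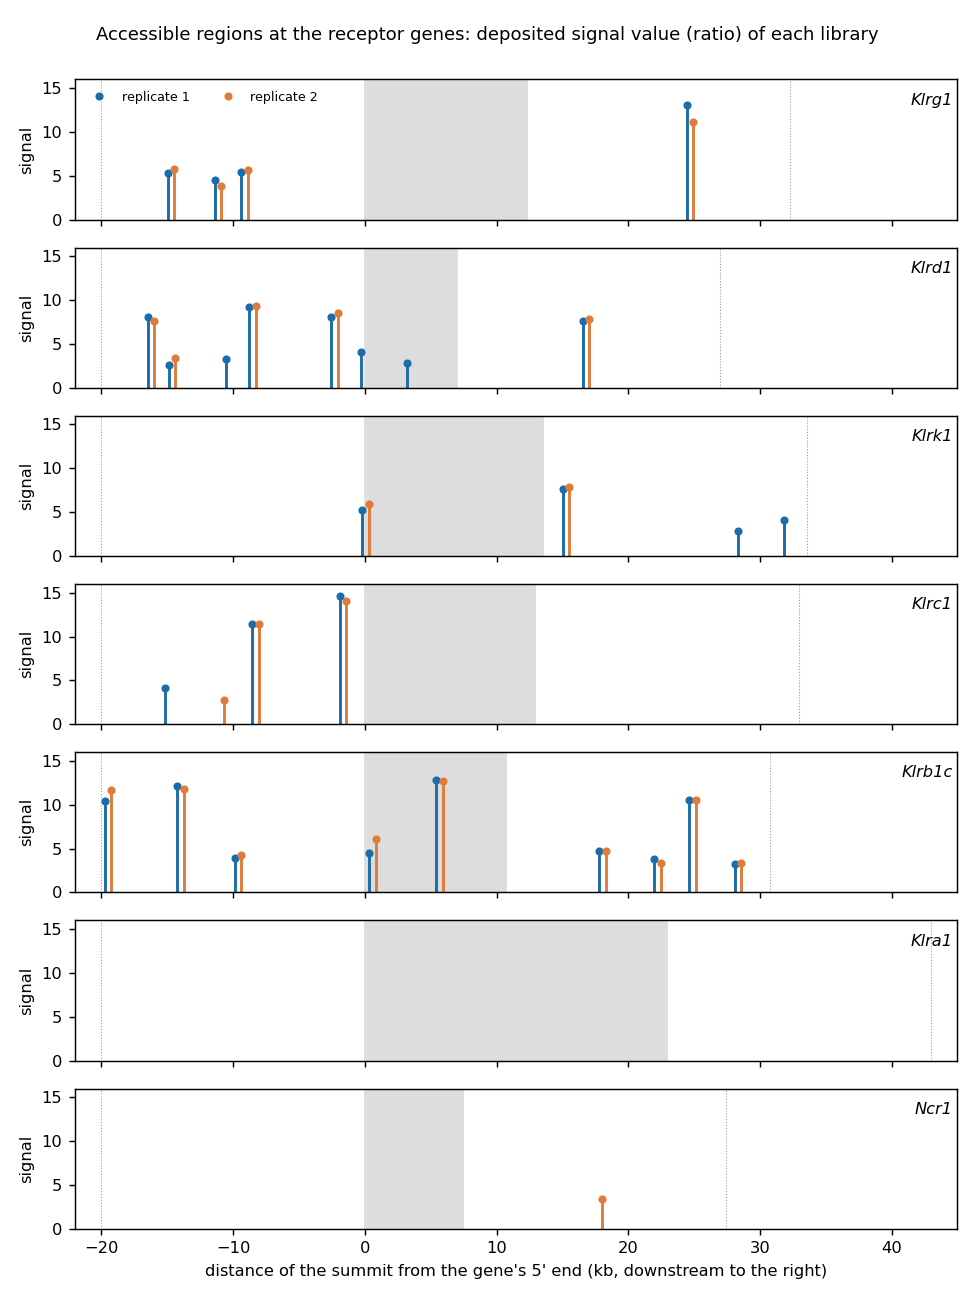
Signal (ratio, column 7) of every peak at the 7 genes against the distance of its summit from the gene's 5' end in kb, downstream to the right, with replicate 1 in blue and replicate 2 in orange, drawn slightly apart. Grey marks the gene body and dotted lines the ends of the 20 kb flanks. Klrb1c carries the most regions, Klra1 has none, and Ncr1 has 1 in replicate 2.

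Klrk1 encodes NKG2D, an activating receptor of NK cells and of activated CD8 T cells. Its promoter region, chr6:129623583-129624082, had its summit 43 bp inside the gene, in an exon, and 20 bp from the nearest of its 3 annotated start positions. The signal was 5.30 in replicate 1 and 5.94 in replicate 2 (5.62 ± 0.456, SD, n = 2), with a −log10 q of 13.03 and 12.99. Both values are low for a promoter: 15.8% of all shared promoter regions had a lower signal, and the genome medians were 10.8 and 10.3. The gene body of 13542 bp (chr6:129610323-129623864) held no distal region. The 1 shared distal region lay between the ends of Klrk1 and Klrd1, at chr6:129608314-129609090, with signals of 7.61 and 7.85 and a −log10 q of 25.4 and 21.4. It is 15.3 kb from the 5' end of Klrk1 and 16.8 kb from that of Klrd1, and counts for both. With replicate 1 alone, the count of distal regions in the Klrk1 window was 2.

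Klrd1 encodes CD94, the invariant chain that pairs with NKG2 proteins such as NKG2A. At its start replicate 1 had a peak 14 bp upstream, chr6:129591518-129591871, with a signal of 4.11 and a −log10 q of 9.14, and replicate 2 had none. Upstream, 3 shared distal regions were stronger than this peak. The nearest, 2.31 kb from the start at chr6:129589368-129589717, had signals of 8.13 and 8.49. The strongest, at chr6:129582955-129584406, lay in an intron of the neighbouring receptor gene Klre1 and had 9.23 and 9.38 (−log10 q of 74.9 and 55.8). The farthest, at chr6:129575253-129576061, had 8.07 and 7.65 and lay 16.2 kb upstream. All 3 are within 20 kb of Klre1 as well. The strongest and the farthest lay nearer to the Klre1 start, at 5357 and 2353 bp, than to that of Klrd1. The ratio of replicate 1 to replicate 2 lay between 0.958 and 1.06 in these 3.

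The Klre1 promoter region falls in the same flank and had the lowest mean signal of the shared regions of the loci, 2.58 in replicate 1 and 3.42 in replicate 2. Its summit lay 767 bp from the Klre1 start, and those of the 2 libraries were 130 bp apart. A peak in a Klre1 intron (3.31, −log10 q of 11.02) and one in a Klrd1 intron (2.81, −log10 q of 2.88) were found in replicate 1 alone. With 4 shared distal regions in a window of 47.0 kb, Klrd1 had more than 87.8% of the 2182 genes in its length class, whose median was 1. All 4 also fall in the window of Klre1 or Klrk1. The classes divide all genes by window length into 10.

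Klrc1 encodes NKG2A, the inhibitory partner of CD94. Its start had no promoter region, but the strongest region of all 7 loci lay 1.67 kb upstream of it, at chr6:129680032-129680983. The signal was 14.6 in replicate 1 and 14.02 in replicate 2 (14.3 ± 0.433, SD, n = 2) and the −log10 q 229 and 162. Of all shared distal regions of the genome, 95.1% had a lower signal. A further region 8.31 kb upstream, chr6:129686783-129687834, had 11.5 and 11.4. Both lie between Klrc1 and Klri1 and are within 20 kb of Klri1 as well, and the one at 1.67 kb is also within 20 kb of Klrc2. Single-library peaks followed at 10.9 kb (replicate 2, 2.72) and 14.9 kb (replicate 1, 4.14). No region lay in the gene body or downstream. In this gene body 51.7% of all stretches of 50 bases occurred once in the reference chromosomes, the lowest share of the 7 genes. Whether this bears on the missing peaks was not tested. With a promoter distance of 2000 bp the region at 1.67 kb counted as the Klrc1 promoter, which gave 3 of 7 genes where 66.3% of all genes had one.

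Klrb1c encodes the NK1.1 antigen that marks NK and NKT cells in C57BL/6 mice. Its locus was the richest of the 7. The promoter region, chr6:128788242-128789051, had its summit 582 bp inside the gene, 8 bp from a more downstream annotated start, and signals of 4.48 and 6.11 (5.29 ± 1.16, SD, n = 2), with a −log10 q of 10.46 and 15.003. It was the shared region that differed most between the libraries, with a ratio of 0.733 of replicate 1 to replicate 2. Among the 50000 strongest peaks of each library it was no longer in both lists, which left Klrk1 as the 1 gene with a promoter region. Of all genes 56.9% had one under that setting.

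The Klrb1c window of 50.7 kb held 8 shared distal regions, more than 99.7% of the 2183 genes in its length class had, whose median was 1. They fell into 4 with a signal above 10 in both libraries and 4 with a signal under 5. The strongest was the sole one in the gene body, in an intron at chr6:128783110-128784067, with 12.8 and 12.7. The next, 14.0 kb upstream at chr6:128802771-128803443, had 12.1 and 11.8. Its −log10 q of 339 and 246 was the largest of the 7 loci, above 99.1% of shared distal regions in replicate 1 and 99.2% in replicate 2. Upstream at 19.5 kb, chr6:128808531-128808975 had 10.4 and 11.7 and a CTCF match at its summit. Downstream at 24.9 kb, chr6:128763776-128764768 had 10.6 in each library and a −log10 q of 204 and 146.

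The 4 weaker regions of Klrb1c were a region 9.62 kb upstream (3.95 and 4.26), and 3 downstream at 18.1 kb (4.69 and 4.71), 22.2 kb (3.75 and 3.35) and 28.3 kb (3.22 and 3.32). The promoter was thus weaker than 4 of the distal regions in both libraries. The 3 upstream regions lie in an intron of Gm44511, a protein-coding model that overlaps Klrb1c, and are within 20 kb of the related receptor gene Klrb1b as well. With the 50000 strongest peaks of each library, the count of shared distal regions was 4.

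**Figure D2:**
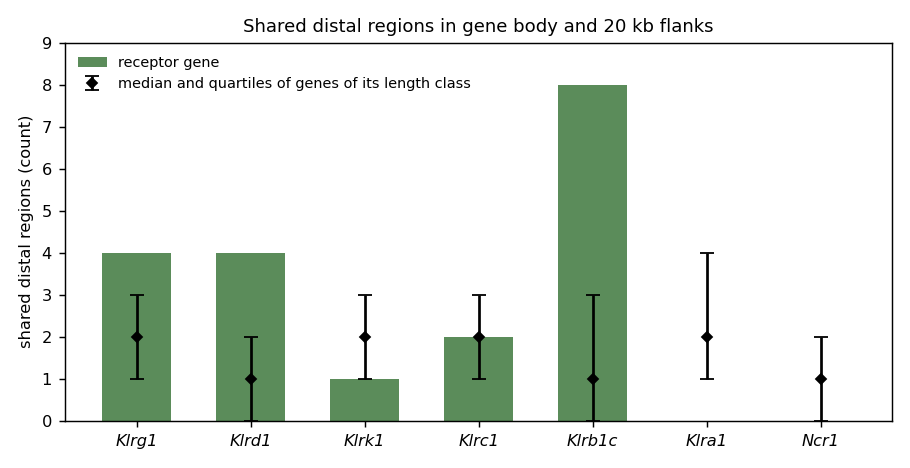
Shared distal regions (count) in the body and 20 kb flanks of each gene (bars), beside the median and quartiles of all protein-coding genes in the same length class (diamonds and lines). Klrb1c with 8 is far above its class, Klrg1 and Klrd1 with 4 are above the upper quartile, and Klra1 and Ncr1 have 0.

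Klrg1 encodes an inhibitory receptor for cadherins that marks effector T and NK cells, and it lies apart from the gene complex, at chr6:122270596-122282882. It had no peak at its promoter or in its body in either library. Its 4 shared distal regions were in the flanks, more than 80.0% of the 2182 genes in its class had. The strongest lay 24.7 kb downstream of the start at chr6:122257729-122259091, with 13.1 in replicate 1 and 11.2 in replicate 2 (12.1 ± 1.36, SD, n = 2). Replicate 1 had 2 peaks there and replicate 2 had 1 wider peak.

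The other 3 Klrg1 regions were clustered upstream. The region at 9.15 kb had 5.37 and 5.66, that at 11.2 kb 4.50 and 3.78, and that at 14.7 kb 5.28 and 5.75. All 3 were below the genome median of shared distal regions, 6.68 in replicate 1 and 6.41 in replicate 2, and they are within 20 kb of the neighbouring gene M6pr too.

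Klra1 encodes Ly49A, an inhibitory receptor for MHC class I, and had no peak of either library in its body or 20 kb flanks (chr6:130363917-130386874 for the gene). Of all protein-coding genes 18.2% had none, and 11.5% of those in its class of window length. The nearest shared region was 232 kb from its start. Of the 10 other Klra genes examined, 6 had no region either. Klra genes are similar in sequence to each other. In the Klra1 window 86.3% of all stretches of 50 bases occurred once in the reference chromosomes, and in the gene body 95.5%. Across the windows of the other 10 the share was 66.8 to 88.9%, and across the other 6 receptors described here 65.1 to 95.8%, lowest at Klrc1. Whether the peaks rest on uniquely placed reads is not given in the sources used here.

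Ncr1, the 1 gene outside chromosome 6, lies at chr7:4337724-4345164. It had no shared region: a single peak of replicate 2, 17.8 kb downstream of the 5' end, had a signal of 3.40 and a −log10 q of 3.86. Of the genes in its class of window length, 42.5% had no shared distal region. The nearest shared region was 89.7 kb away. With replicate 2 alone the count of distal regions at Ncr1 was 1.

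The 18 shared distal regions of the loci had a median signal of 8.10 in replicate 1 (3.22 to 14.6) and 8.17 in replicate 2 (3.32 to 14.02). The medians of all 52839 shared distal regions were 6.68 and 6.41. Of the 18, 11 were above the genome median of the mean signal, 7 were in the strongest 25% and 2 in the strongest 10%. Their median width was 955 bp, where that of all shared distal regions was 690 bp. By the position of the summit, 5 lay in introns and 13 between genes, and the shares over all shared distal regions were not worked out. The introns were those of Klrb1c, of its neighbour Klre1 in the Klrd1 flank, and of Gm44511, the model that overlaps Klrb1c. Only the Klrb1c intron belongs to a receptor gene described here. These are descriptions of regions, which are not replicates.

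Both libraries gave like values. The ratio of replicate 1 to replicate 2 signal ran from 0.733 to 1.19 over the 21 shared regions, with a median of 0.984 against 1.04 in the genome. Summits lay a median of 5 bp apart. The −log10 q was larger in replicate 1 in 18 of the 21, with a median ratio of 1.26 against 1.39 in the genome. The 6 single-library regions were weak, with signals up to 4.14 in the 4 of replicate 1 and up to 3.40 in the 2 of replicate 2.

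**Figure D3:**
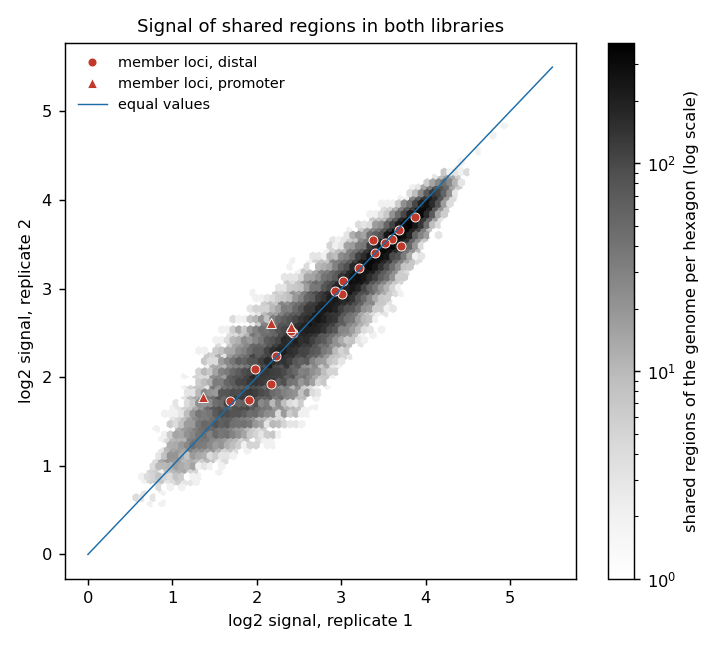
Log2 signal in replicate 1 (x) and replicate 2 (y) of the 66847 shared regions of the genome (grey hexagons, log count scale) and of the 21 at the receptor genes (red; circles distal, triangles promoter). The line marks equal values. The red points lie along it, and the 3 promoter regions lie above it in the lower part of the cloud.

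Signal and −log10 q ordered the regions differently. The Klrb1c intronic region and the region 14.0 kb upstream of that gene differed little in signal, 12.8 against 12.1 in replicate 1, but had −log10 q values of 77.2 and 339. The Klrg1 region with a signal of 13.1 had 95.3. In replicate 2 these 3 regions had 63.2, 246 and 55.1, so the region 14.0 kb upstream was the highest in both libraries and the other 2 changed places.

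**Figure D4:**
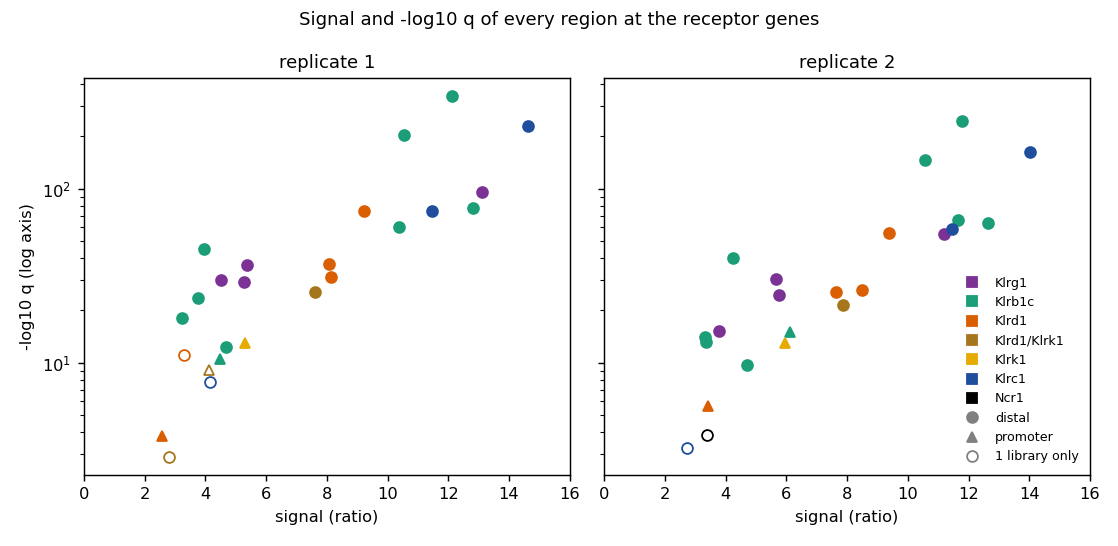
Signal (ratio, x) and −log10 q (log axis, y) of each region in replicate 1 (left) and replicate 2 (right), coloured by gene. Filled symbols are shared regions, open ones those of 1 library, circles distal and triangles promoter regions. Promoter and single-library regions lie at the lower left in both libraries.

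The other genes of the pathway were read in the same way from 4 lists, but their distal counts were not set beside genes of like window length. A longer gene has a longer window, so these counts are not comparable between genes of unlike length. The list of other killer receptors had 35 genes matched in the annotation. It is wider than its name, since it also holds Cd69 and Clec genes, of which Clec2d and Clec2i are in the ligand list too. Of the 35, 11 had an open promoter in both libraries (31.4%, against 62.8% of all genes), which is not a share for killer receptors alone. A shared distal region was found at 26, where 71.7% of all genes had one. The median count was 2, as over all genes. The strongest promoters were those of Slamf7, a receptor of the SLAM family (15.9 and 15.01), and Clec2d, which encodes a ligand of an inhibitory Klrb1 receptor (11.3 and 10.6). The most distal regions were at Cd226, an activating adhesion receptor, with 14, and at Slamf7 and Klrb1b with 7 each. Klra5, Klra6, Klra7 and Klra8 were among the 6 of 35 with no region, where 18.2% of all genes had none.

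Of 14 adaptor and signalling genes, 9 were open at the promoter in both (64.3%, against 62.8% of all genes). A shared distal region was found at 13, where 71.7% of all genes had one. Ptpn11, a phosphatase that inhibitory receptors recruit, had 12.9 in each library, and Plcg2, a phospholipase, 11.9 and 12.9. Cd247, the zeta chain of the T-cell receptor, had the most distal regions, 18, with no promoter region, and Ptpn11 had 10. The partner chains of NKG2D, named here after their values were seen, differed at the promoter. Hcst (DAP10) had a promoter region of 4.56 and 4.48, while Tyrobp (DAP12) had none in either library. They had 2 and 3 shared distal regions, but the genes are neighbours with overlapping windows, so these counts are not separate measurements.

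Of 12 ligand genes, 10 had a promoter region in both libraries (83.3%, against 62.8% of all genes). By mean signal the highest were at H2-K1, a classical MHC class I gene (13.7 and 13.5), and Ulbp1, which encodes the NKG2D ligand MULT1 (12.4 and 9.94). In replicate 2 alone H2-D1 (11.2), named after its values were seen, and Clec2d (10.6) were above Ulbp1. Raet1e and H60b, genes of further NKG2D ligands, had 8 shared distal regions each in overlapping windows and the same promoter region (7.25 and 9.28), so they are not separate measurements. H2-T23, which encodes the Qa-1 ligand of CD94/NKG2A and was also named after its values were seen, had 8.34 and 7.75.

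Of 10 transcription factor genes of NK and effector T cells, 9 had a promoter region in both libraries (90%, against 62.8% of all genes), all but Zfp683. Runx3, whose protein is a RUNX factor, had 17.4 and 15.8, and Prdm1, which encodes Blimp-1, had 13.1 and 13.7. Ets1 had the most distal regions, 24, followed by Prdm1 with 11.

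**Figure D5:**
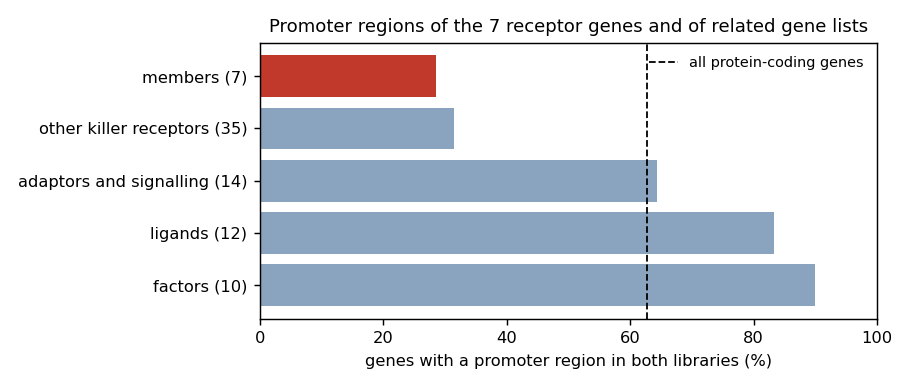
Share of genes with a promoter region in both libraries (%) among the 7 receptor genes (red) and 4 related lists (blue, with the number of genes matched); the dashed line marks all protein-coding genes. The 7 genes (28.6%) and the list of other killer receptors, which also holds Clec genes and Cd69 (31.4%), lie below the line at 62.8%. The ligand and factor lists lie above it.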

How the data were processed

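Peak lists of 2 ATAC-seq libraries of mouse T cells were used, 1 per library, on mm10 per the deposited notes. Aligner, peak caller, versions and threshold are not given in the sources used here, and read shifting could not be checked. The deposited signal is a ratio, read as fold enrichment from its values; the deposited −log10 p and −log10 q and the authors' score were left as they are, and the score was not used. The lists of replicates 1 and 2 end at a deposited −log10 q of 1.02 and 1.01. Peaks outside the 21 assembled chromosomes were left out, 88 and 80 of them. Genes (1 per symbol) and starts came from GENCODE mouse release 21, whose coordinates are those of mm10. All peaks ended within the GRCm38 chromosome lengths. Merged regions took the summit and values of the strongest peak, per library for the values. Promoter sequences are RefSeq's (GRCm38.p6). A gene's promoter counted if each library had a summit within 1000 bp of one of its own starts. Windows were split into 10 classes by length. No test was made, with 1 group of 2 libraries. The genes, lists and motifs were chosen with earlier results of these data known. Named genes were all 7 receptors and, per list, the 2 promoters strongest by mean signal, the 2 with most distal regions and at most 4 lacking any region. Klrh1 and Clec2f were not matched. Python 3.11.15, pandas 2.3.3 and numpy 2.4.6 were used, and the merging code was tested on simulated peaks.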

Additional observations from a re-analysis of the deposited data

How the results depend on the processing

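Over 10 alternative settings, 93 of 118 values stayed within 1.5 times the main count or, for the median signal, within the SD between the libraries (0.0483). Taking the 50000 strongest peaks of each library left 1 receptor gene with a promoter region, 15 regions in all and a median distal signal of 10.6. With gene bodies alone there were 4 regions, 1 gene with a distal region and 1 shared distal region, of signal 12.7. With 50 kb flanks there were 42 regions. The median distal signal, 8.08 as reported, was 8.31 with the stricter overlap rule (0.5 of both regions), 7.86 with promoters within 500 bp, within 2000 bp or at starts of all annotated genes, and 6.49 to 7.65 with either library left out. Of the counts of distal regions at single genes, 59 stayed within the limit and 11 did not. Depth is unknown, so it is not known how many weak regions either list misses.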

Other observations

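The stretches of the natural killer gene complex differed in how many shared regions they held. These stretches were chosen after the values were seen. From Klrb1a to Cd69 (chr6:128609227-129275436) there were 55 shared regions, or 82.6 per Mb. From Klre1 to Klri2 (chr6:129577905-129740484) there were 7, or 43.1 per Mb. From Klra5 to Klra1 (chr6:129898996-130386874), a stretch of 488 kb, there were 4, or 8.20 per Mb. Chromosome 6 as a whole, from its first to its last region, held 24.9 per Mb. The median signal of the shared regions was 5.29 from Klrb1a to Cd69, 9.31 from Klre1 to Klri2 and 7.81 from Klra5 to Klra1, against 7.28 on the chromosome.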
